A study of Mus musculus with 14 samples.

Results

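The genes described here are 37 mouse genes of DNA replication and S phase, grouped by their known roles. They cover origin licensing, the MCM helicase ring and its activators, the sliding clamp and its loader, the replicative polymerases, fragment joining, deoxynucleotide supply, chromatin assembly, and 3 regulators of S-phase entry. The list was chosen with earlier results of these data known, so its shares set against all genes are descriptive. RNA-seq libraries came from lungs of mice mutant for Nkx2-1, a homeodomain factor needed for lung and thyroid epithelium. Alveolar type 1 (AT1) cells, the flat gas-exchange cells, gave 3 mutant and 3 control libraries at postnatal day 5. Alveolar type 2 (AT2) cells, which secrete surfactant, gave 3 mutant and 3 control libraries, taken at days 8, 8 and 9 in each arm. Whole lung at day 14 gave 1 mutant and 1 control library. The crosses are labelled Nkx2-1;Aqp5 for AT1 cells and whole lung and Nkx2-1;Sftpc for AT2 cells. Aqp5 and Sftpc are genes typical of AT1 and AT2 cells, but the alleles, the Cre drivers and the controls' genotype are not stated in the sources used here. The labels number the libraries with letters and do not say that each came from a separate animal, so a p-value measures the spread between these libraries.

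Values are FPKM, fragments counted per kilobase of transcript and per library size, so the depth in reads is unknown. All 37 genes were found among the 23793 named loci of the AT1 and lung table. Of the 37, 31 were found among the 31168 named loci of the AT2 table. Mcm3, Mcm7, Cdc45, Fen1, Chaf1a and Uhrf1 were not matched there by name and were not analysed in AT2 cells, and 1441 loci of that table (4.42%) carried no gene name. Nkx2-1 itself measured 22.8, 55.8 and 68.2 FPKM in mutant AT1 libraries A to C, against 262, 281 and 239.8 in controls A to C. Mutant AT2 libraries held 74.4, 59.0 and 73.4 FPKM of it, against 247, 289 and 353 in controls. Reads outside any deleted exon still count towards such a gene total. Of 10 AT1 cell genes, 9 fell in mutant AT1 libraries, where their summed FPKM was 1649 to 3249, against 9837 to 12314 in controls. Of 9 AT2 cell genes named in the AT2 table, all 9 fell, with a summed FPKM of 3024 to 4881 in mutants and 85782 to 114898 in controls. Over all genes tested, 785 of 12612 fell in AT1 cells and 2382 of 10594 in AT2 cells. The defining markers of both labelled cell types were therefore present in the controls and lower in the mutants. AT1 controls also held AT2 cell genes, at a summed FPKM of 8793 to 19278, and AT2 controls held AT1 cell genes at 2968 to 4438. The purity of the libraries was not tested.

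Before S phase, the origin recognition complex, Cdc6 and Cdt1 load the MCM ring onto DNA. The ring becomes an active helicase once Cdc45 and the GINS complex join it, and the polymerases then copy both strands behind it, held by the PCNA clamp. Many of these genes are transcribed in a burst at the boundary of G1 and S by E2F transcription factors. The pocket proteins of the RB family hold these factors inactive until cyclin-dependent kinases, CDK2 with cyclin E among them, release them. AT1 cells are regarded as largely quiescent after they differentiate, while AT2 cells keep the capacity to divide.

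Promoters of these genes carry E2F letters more often than promoters in general. A RefSeq promoter window, 250 bases before to 50 after the start site on GRCm38.p6, was held for 32 of the 37 genes. Gins1, Gins2, Mcm4, Pole and Ccne2 had none. Mcm7, Fen1, Lig1 and Uhrf1 had more than 1 window, so the 32 genes had 37, and a gene was counted if any of its windows held a match. The E2F letters searched on both strands were TTTCCCGC, TTTCGCGC, TTTGCCGC and TTTGGCGC, and 13 of the 32 genes (40.6%) held at least 1 of them, against 704 of 27025 genes with a window (2.60%). The trait was not particular to these genes: 7 of 11 E2F, pocket protein and CDK2 genes (63.6%) and 8 of 29 other replication genes (27.6%) held one too. The windows of Mcm3, Mcm5, Mcm6, Mcm7 and Rfc3 held at least 2 matches, so 4 of these 5 genes encode subunits of the MCM ring. Of the 19 matches, 11 began within 100 bases of the start site. Ccne1 and E2f1 had no match in this window, which says only that these letters are not in it.

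The window of Mcm6 is shown because it held the most matches of any MCM ring gene, and that of Uhrf1 because Uhrf1 had the largest change in AT1 cells among genes with a match. Both are printed 5′ to 3′ along the gene's strand, with the matches in capitals. The Mcm6 window lies at chr1:128359656-128359955 on the minus strand, with matches beginning at -110, -106 and -47 from the start site. The Uhrf1 window lies at chr17:56304063-56304362 on the plus strand, with its match at -185. Uhrf1 has a second start site with a window at chr17:56303087-56303386, which spans the gene's start in the GENCODE annotation (56303321) and held no match.
Mcm6: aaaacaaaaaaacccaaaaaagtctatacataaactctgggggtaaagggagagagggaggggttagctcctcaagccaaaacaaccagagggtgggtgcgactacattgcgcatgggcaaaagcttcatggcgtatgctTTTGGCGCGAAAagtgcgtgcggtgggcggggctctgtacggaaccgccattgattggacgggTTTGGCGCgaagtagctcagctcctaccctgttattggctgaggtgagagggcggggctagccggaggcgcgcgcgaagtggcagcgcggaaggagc
Uhrf1: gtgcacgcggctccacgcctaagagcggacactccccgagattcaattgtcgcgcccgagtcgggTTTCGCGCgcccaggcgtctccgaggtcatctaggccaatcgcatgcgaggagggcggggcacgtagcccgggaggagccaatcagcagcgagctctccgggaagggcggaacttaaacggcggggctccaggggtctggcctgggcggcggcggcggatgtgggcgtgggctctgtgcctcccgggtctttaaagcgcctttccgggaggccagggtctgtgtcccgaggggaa

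Mcm5 and Mcm6 carry the same 12 letters as an overlapping pair of E2F matches, read on opposite strands. The stretches below hold the pair in capitals with 10 bases on each side, Mcm5 at chr8:75109346-75109377 on the plus strand and Mcm6 at chr1:128359794-128359825 on the minus strand.
Mcm5: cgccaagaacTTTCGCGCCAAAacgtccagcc
Mcm6: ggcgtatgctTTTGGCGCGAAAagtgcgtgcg
Read on either strand, these 12 letters were found in the windows of 4 of 27025 genes (0.0148%), namely Mcm5, Mcm6, Msh3 and Mycn. This search was added after the windows had been seen. In AT1 cells the median log2 fold change was 1.22 for the genes with an E2F match and 1.15 for those without.

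In AT1 cells, mutants had higher levels than controls of most of the 37 replication genes, while 20 of 39 further replication genes tested rose. Of the 37 genes, 31 rose, none fell and 6 did not pass (limma on log2(FPKM + 1), two-sided, Benjamini-Hochberg adjusted p under 0.05 over 12612 genes). Over all genes tested 11.6% rose. The fold of mean FPKM ran between 1.19 (E2f1) and 4.17 (Ccne1) with a median of 2.65, and 30 genes were at least 2-fold higher. The median log2 fold change was 1.15, against 0.00065 over all genes. All 3 mutant libraries lay above all 3 controls for 36 of the 37 genes, a pattern that 23.6% of all genes showed.

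The 31 calls depended on which mutant library was left out more than the sizes did. Without mutant A 7 of 36 genes passed, without mutant B 22 and without mutant C 15, while 2.24, 5.56 and 5.06% of all genes rose. The median log2 change of the replication genes was then 1.19, 1.20 and 1.10. The libraries of a letter deviated together in AT1 cells, and with letters as a block 34 genes passed (15.1% of all genes rose in that fit). Control A stood apart from the other controls. It was the lowest library for 36 of the 37 genes, with a median ratio of 0.537 to the mean of controls B and C. The summed FPKM of the 37 genes was 728, 654 and 755 in mutants A to C, and 200.3, 357 and 343 in controls A to C. Without control A 29 genes passed, against 9.17% of all genes, and the median log2 change was 0.95. Without control B 31 passed and without control C 27, against 8.69 and 7.31% of all genes. The median log2 change was then 1.28 and 1.18. Every mutant lay above both controls B and C for 36 genes. The count follows from the separation of mutants from all controls given above, so it is not a separate check on control A.

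**Figure D1:**
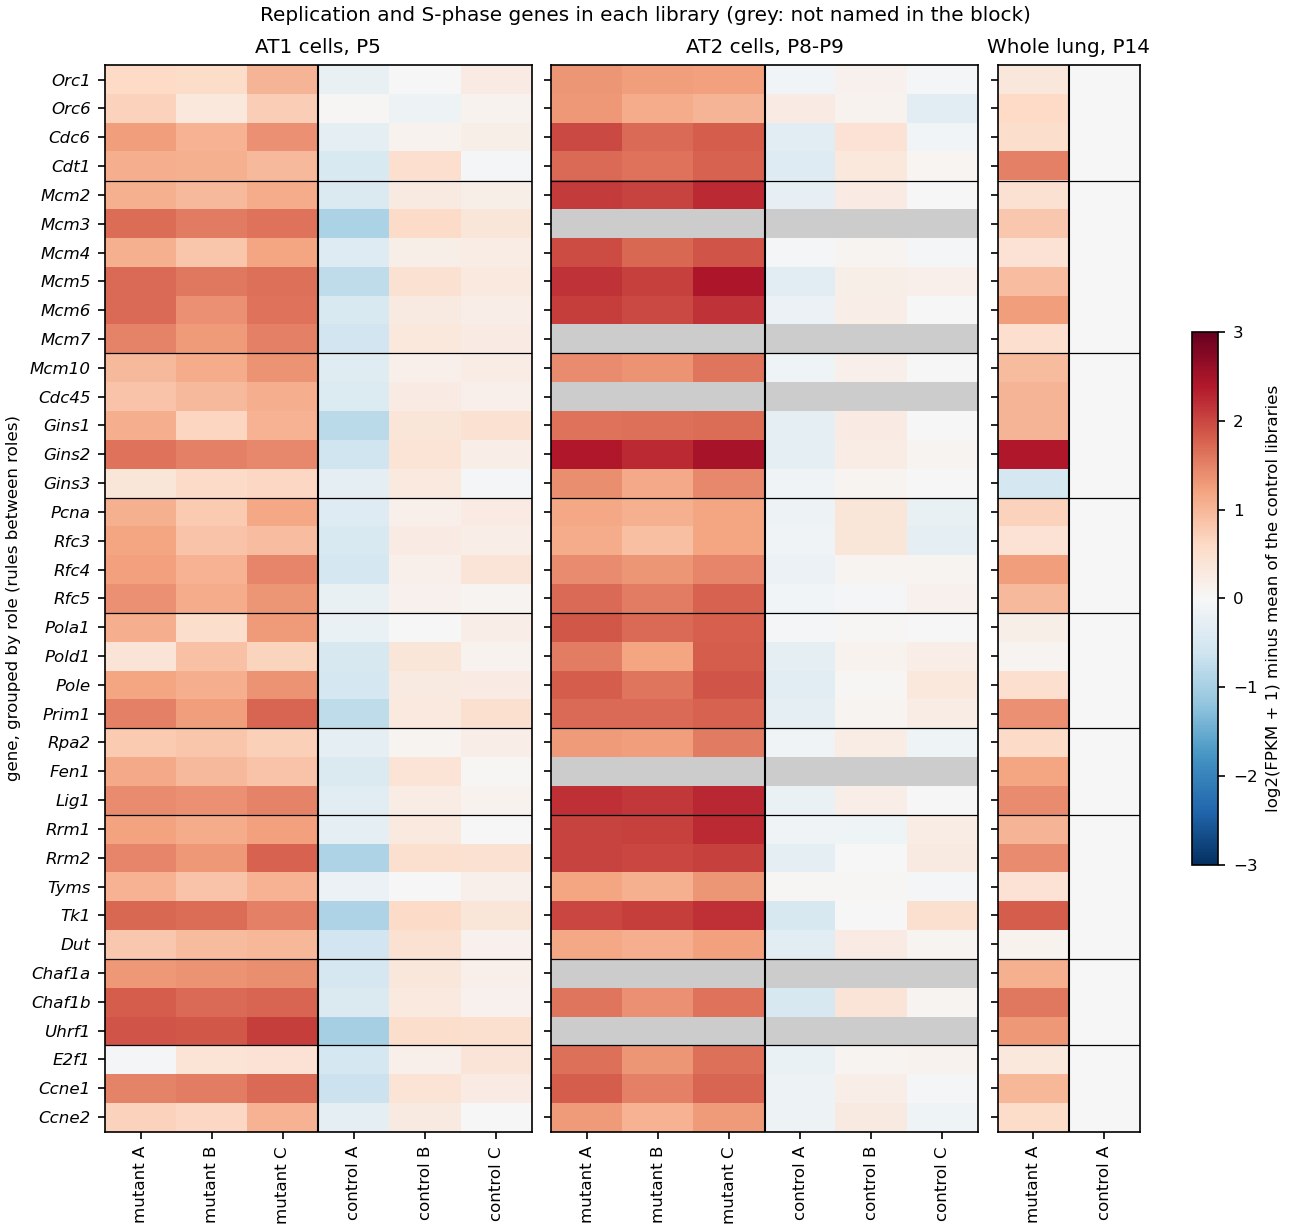
Each cell is log2(FPKM + 1) of 1 gene in 1 library minus the mean of the control libraries of that table, with red above and blue below; genes run down the page by role, and mutant libraries stand left of controls. The 3 mutant AT1 and 3 mutant AT2 libraries are red for nearly every gene, control A is the bluest column among the AT1 controls, and grey marks the 6 genes not named in the AT2 table.

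Licensing factors were split by the threshold, not by direction, in mutant AT1 cells. Cdc6, the ATPase that helps load the MCM ring, had 3.74, 3.07 and 4.11 FPKM in mutants and 0.633, 1.13 and 1.23 in controls (log2 1.22 ± 0.19 SE, adjusted p = 0.00922). Cdt1, its partner in loading, had 14.6, 14.3 and 13.4 FPKM in mutants and 4.30, 9.36 and 6.18 in controls (1.04 ± 0.24, adjusted p = 0.0247). Both were higher in every mutant than in every control. The origin recognition subunits Orc1 and Orc6 were also higher in each mutant library but missed the threshold. Orc1 measured 1.46, 1.38 and 2.26 FPKM in mutants and 0.39, 0.60 and 0.906 in controls (0.72 ± 0.21, adjusted p = 0.0526). Orc6 measured 13.2, 9.99 and 13.8 FPKM in mutants and 8.12, 6.97 and 8.58 in controls (0.58 ± 0.17, adjusted p = 0.0512). With letters as a block their adjusted p was 0.027 and 0.0236.

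All 6 subunits of the MCM ring, the hexamer that unwinds DNA, rose in AT1 cells, with log2 changes of 1.02 (Mcm4) to 1.64 (Mcm5). Mcm6 had 49.9, 39.6 and 47.6 FPKM in mutants and 10.5, 17.8 and 16.96 in controls (1.56 ± 0.21, adjusted p = 0.00567). Mcm5 had 23.7, 21.9 and 22.9 FPKM in mutants and 3.47, 9.55 and 8.41 in controls (1.64 ± 0.30, adjusted p = 0.0134). The lowest mutant was more than the highest control for both. Within a library the most and the least abundant ring gene differed 2.12-, 2.01- and 2.07-fold in mutants A to C, and 3.04-, 2.01- and 2.17-fold in controls A to C. The 6 subunits thus kept a similar spread in all libraries but control A, where it was wider.

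Among the factors that turn the ring into a working helicase, Mcm10, Cdc45 and Gins2 rose and Gins1 and Gins3 did not pass. Gins2, a GINS subunit, had 17.4, 16.04 and 15.1 FPKM in mutants and 2.93, 6.87 and 5.81 in controls (1.53 ± 0.25, adjusted p = 0.0104). Gins1 had 7.58, 5.35 and 7.31 FPKM in mutants and 1.31, 4.15 and 4.50 in controls (0.93 ± 0.33, adjusted p = 0.0894). Gins3 had 2.03, 2.55 and 2.62 FPKM in mutants and 0.96, 1.91 and 1.33 in controls (0.52 ± 0.20, adjusted p = 0.111). The groups did not overlap for any of the 3, so these GINS subunits differed in the size and spread of the change, not in its direction. Gins4, a GINS subunit among the further replication genes, averaged 20.0 FPKM in mutants and 13.2 in controls. It did not pass either (0.58 ± 0.18, limma adjusted p = 0.0565).

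The clamp and its loader rose in all 4 genes. Pcna, the sliding clamp that tethers polymerases, was the most abundant of the 37 genes, with 142, 118 and 153 FPKM in mutants and 51.5, 75.3 and 80.0 in controls (1.00 ± 0.20, adjusted p = 0.0169). Rfc5, a subunit of the clamp loader, had 17.4, 14.3 and 16.8 FPKM in mutants and 5.14, 6.80 and 6.55 in controls (1.27 ± 0.16, adjusted p = 0.00463). Both were separated in every library.

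Of the polymerase genes, Pola1, Pole and Prim1 rose and Pold1 did not pass. Prim1, the primase subunit that makes RNA primers, had 15.2, 12.5 and 17.97 FPKM in mutants and 2.36, 5.94 and 6.94 in controls (1.495 ± 0.32, adjusted p = 0.0207). Pold1, the catalytic subunit of polymerase delta, had 9.76, 14.1 and 12.03 FPKM in mutants and 4.91, 9.67 and 7.96 in controls (0.64 ± 0.24, adjusted p = 0.105). For Pold1 mutant A lay just above control B, and with letters as a block its adjusted p was 0.026.

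Genes of strand completion and of the deoxynucleotide supply all rose. Lig1, the ligase that seals Okazaki fragments, had 31.3, 30.1 and 32.6 FPKM in mutants and 8.52, 13.1 and 12.02 in controls (1.42 ± 0.17, adjusted p = 0.00432). Rrm1, the large subunit of ribonucleotide reductase, had 32.8, 30.3 and 33.4 FPKM in mutants and 11.1, 16.8 and 13.4 in controls (1.18 ± 0.17, adjusted p = 0.00639). Mutant libraries were tightly grouped for both genes. Tk1, thymidine kinase of the salvage pathway, had 28.3, 26.9 and 24.1 FPKM in mutants and 3.63, 12.1 and 10.3 in controls (1.64 ± 0.36, adjusted p = 0.0222). Fen1 and Rpa2, which trim flaps and coat exposed strands, rose 2.07- and 1.80-fold, and Rrm2, Tyms and Dut 2.79-, 2.22- and 1.94-fold by mean FPKM.

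The 3 genes of chromatin assembly and methylation upkeep had the highest median change of any role in AT1 cells, 1.75 on the log2 scale. Uhrf1, which brings the maintenance methyltransferase to newly copied DNA, had 20.8, 20.5 and 23.8 FPKM in mutants and 1.94, 7.52 and 7.21 in controls (1.94 ± 0.38, adjusted p = 0.0161). Chaf1b, a subunit of the CAF-1 histone chaperone, rose 3.85-fold by mean FPKM and had the lowest adjusted p of the 37 genes (0.00392). Its partner Chaf1a rose 2.84-fold. The lowest mutant value of each of the 3 genes was above the highest control value.

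Regulators of S-phase entry differed among themselves in AT1 cells. Ccne1, a cyclin E that activates CDK2, had 5.51, 5.63 and 6.54 FPKM in mutants and 0.468, 2.04 and 1.73 in controls (1.58 ± 0.28, adjusted p = 0.012). Ccne2, the other cyclin E, also passed (0.79 ± 0.21, adjusted p = 0.0416). E2f1, an activating E2F factor, had 9.41, 13.2 and 13.4 FPKM in mutants and 6.40, 10.9 and 12.9 in controls (0.26 ± 0.26, adjusted p = 0.496). It is the gene whose groups overlapped: mutant A lay below controls B and C. Without control A its log2 change was -0.0037.

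In AT2 cells every replication gene with a name in the table was higher in mutants. All 31 rose, against 32.2% of the 10594 genes tested, and no gene's groups overlapped, a pattern with every mutant library higher that 38% of all genes showed. The fold of mean FPKM ran between 2.13 (Rfc3) and 5.76 (Gins2) with a median of 3.58, and 13 genes were at least 4-fold higher. The median log2 fold change was 1.67, against 0.09 over all genes, and adjusted p ran between 1.44e-05 (Pola1) and 0.00165 (Rfc3). The summed FPKM of the 31 genes was 1364, 1272 and 1441 in mutants A to C, and 367, 498 and 420.3 in controls A to C. All 31 genes passed under each other scaling (25.7 to 56.7% of all genes rose). All 30 or 31 genes tested passed when any 1 library was left out (25.6 to 34% of all genes rose) and in the day 8 libraries alone (24%).

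Mitochondrially encoded transcripts took 12.8, 11.5 and 8.85% of the FPKM in mutant AT2 libraries A to C, and 33.7, 27.7 and 14.0% in controls A to C. The same gene names held 0% of the FPKM in each AT1 and lung library. With the summed FPKM made equal, the median log2 change was 2.201 for the replication genes and 0.64 for all genes, and with mitochondrial and small RNA loci left out of the sum 1.96 and 0.38. The part of these shares in the size of the changes was not tested.

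Licensing factors passed in all 4 genes in AT2 cells. Cdt1 had 33.9, 32.2 and 35.8 FPKM in mutants and 7.22, 12.4 and 10.2 in controls (log2 1.70 ± 0.17 SE, limma adjusted p = 0.000221). Cdc6 had 16.6, 13.4 and 14.5 FPKM in mutants and 2.49, 4.95 and 3.21 in controls (1.83 ± 0.20, adjusted p = 0.00028). Orc1 and Orc6, which missed the threshold in AT1 cells, rose 4.21- and 2.30-fold by mean FPKM.

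The 4 MCM ring genes named in the AT2 table were among the genes that changed most, with a median log2 change of 2.10. Mcm6 had 97.8, 92.3 and 105 FPKM in mutants and 19.8, 25.9 and 22.4 in controls (2.07 ± 0.11, adjusted p = 2.5e-05). Mcm5 had 59.0, 54.5 and 70.7 FPKM in mutants and 9.47, 14.1 and 13.9 in controls (2.22 ± 0.17, adjusted p = 7.36e-05). The mutant values of both were more than 3 times the highest control. Gins2 had the largest change of all 31 genes, with 39.1, 34.5 and 41.3 FPKM in mutants and 5.16, 7.79 and 6.98 in controls (2.37 ± 0.14, adjusted p = 3.49e-05). Gins1 and Gins3 rose 3.52- and 3.69-fold, so these 3 GINS subunits all passed in AT2 cells. Gins4, among the further replication genes, averaged 27.8 FPKM in mutants and 17.8 in controls. It passed too (0.62 ± 0.09, limma adjusted p = 0.00126).

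The clamp and its loader changed least by role, with a median log2 change of 1.27. Pcna had 309, 290.2 and 315 FPKM in mutants and 124, 178 and 118 in controls (1.14 ± 0.17, adjusted p = 0.00123). Rfc5 had 44.3, 39.7 and 46.6 FPKM in mutants and 12.3, 12.4 and 14.3 in controls (1.67 ± 0.10, adjusted p = 2.91e-05). Pcna was again the most abundant of the replication genes. Prim1 had 38.8, 38.5 and 40.7 FPKM in mutants and 8.94, 11.9 and 13.1 in controls (1.73 ± 0.13, adjusted p = 8.15e-05). Pola1, the catalytic subunit of polymerase alpha, had 15.4, 13.6 and 14.7 FPKM in mutants and 3.38, 3.59 and 3.57 in controls (1.78 ± 0.09, adjusted p = 1.44e-05). Pola1 controls differed little from each other, and its adjusted p was the lowest of the 31 genes.

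Lig1 had 77.8, 73.7 and 80.8 FPKM in mutant AT2 libraries and 13.9, 18.6 and 16.3 in controls (2.19 ± 0.11, adjusted p = 1.91e-05). Rrm1 had 59.9, 60.7 and 69.0 FPKM in mutants and 12.9, 12.7 and 16.5 in controls (2.10 ± 0.12, adjusted p = 2.72e-05). Tk1 had 79.8, 85.0 and 92.1 FPKM in mutants and 13.5, 19.1 and 27.4 in controls (2.09 ± 0.22, adjusted p = 0.000283). The nucleotide genes fell into a larger group, with Rrm1, Rrm2 and Tk1 above 4-fold, and a smaller one, with Tyms and Dut at 2.44- and 2.28-fold.

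Chaf1b, the chromatin assembly gene named in the AT2 table, had 32.7, 27.6 and 33.0 FPKM in mutants and 6.98, 13.4 and 10.8 in controls (1.53 ± 0.21, adjusted p = 0.00082). Ccne1 had 11.0, 8.75 and 10.6 FPKM in mutants and 2.09, 2.94 and 2.31 in controls (1.69 ± 0.13, adjusted p = 8.72e-05). E2f1 rose in AT2 cells, with 22.2, 17.4 and 22.2 FPKM in mutants and 5.39, 6.83 and 6.91 in controls (1.55 ± 0.13, adjusted p = 0.000118). The lowest E2f1 value in mutants was well above the highest in controls, unlike in AT1 cells.

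**Figure D2:**
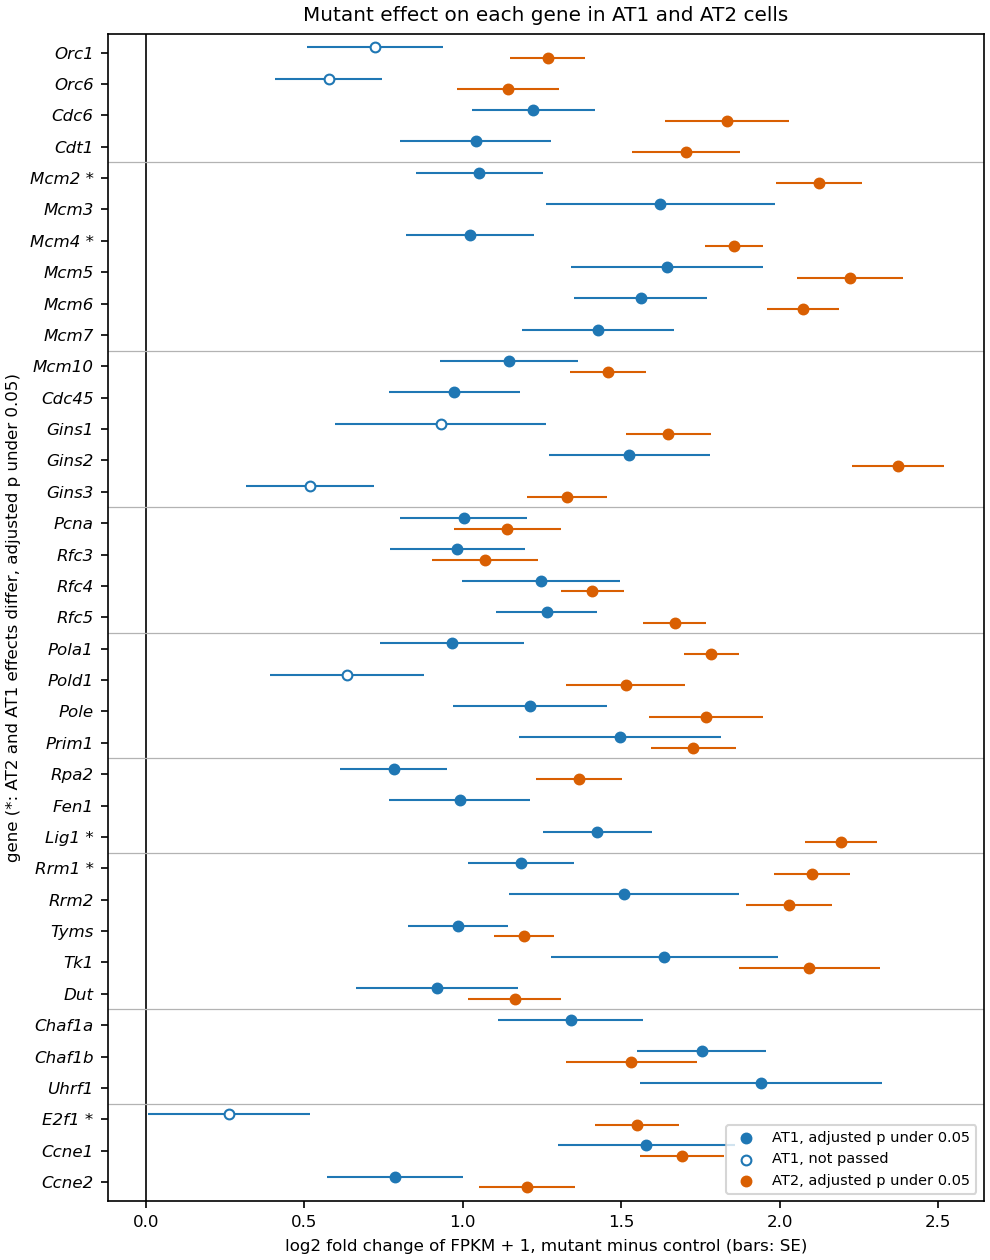
Points give the log2 fold change of FPKM + 1, mutant minus control, of each gene in AT1 (blue) and AT2 (orange) cells with its SE, 3 libraries per group; open points did not pass. All points lie right of 0, AT2 points lie right of AT1 points for 30 of 31 genes, and stars mark Mcm2, Mcm4, Lig1, Rrm1 and E2f1.

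The change was larger in AT2 cells than in AT1 cells for some of these genes. Of the 31 genes tested in both, 30 had the larger change in AT2 cells, and 5 passed the interaction test. The median difference was 0.56 on the log2 scale, against 0.07 over all genes. Without AT1 control B 28 had the larger change in AT2 cells, and without AT1 control C 26. The median difference was then 0.41 and 0.43, against 0.08 and 0.04 over all genes. Of all 10336 genes tested 4.02% passed in this direction. The 5 calls rested on single libraries: none passed without AT2 control A or AT2 mutant C, 1 without AT1 control C or AT2 mutant A, 2 without AT1 mutant A, AT1 mutant B or AT2 control B, 3 without AT1 control B, AT2 control C or AT2 mutant B, and 14 without AT1 control A (5.33% of all genes). Of all genes, 1.76 to 5.7% passed in this direction when 1 library was left out. With letters as a block 8 passed, against 6.51% of all genes. With equal summed FPKM 18 passed, against 29% of all genes, whose median difference was then 0.53. E2f1 differed most, with a change of 1.55 in AT2 cells and 0.26 in AT1 cells (difference 1.29 ± 0.31 SE, adjusted p = 0.0285). Mcm2, a ring subunit, changed by 2.12 in AT2 cells and 1.05 in AT1 cells (1.07 ± 0.25, adjusted p = 0.0257). Rrm1, Mcm4 and Lig1 differed by 0.92, 0.83 and 0.77 (adjusted p = 0.0208, 0.045 and 0.0427), and with letters as a block Mcm4 did not pass (adjusted p = 0.0506). Mcm2 had 55.2, 52.3 and 60.6 FPKM in AT2 mutants and 9.94, 14.4 and 12.2 in AT2 controls. In AT1 cells it had 26.1, 24.6 and 27.0 FPKM in mutants and 8.54, 14.7 and 13.5 in controls. Its control values covered much the same range in both tables, while every AT2 mutant lay above every AT1 mutant.

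Pcna, Rfc3, Ccne1 and Tyms had differences of 0.14 ± 0.27, 0.09 ± 0.29, 0.11 ± 0.33 and 0.21 ± 0.17 (SE) that did not pass. Chaf1b had the larger change in AT1 cells (-0.22 ± 0.31, adjusted p = 0.691), and its sign turned with the summed FPKM made equal (0.26, and 0.15 with mitochondrial and small RNA loci left out of the sum). The ages differ between the cell types, and cell type and age cannot be told apart. The tables were also normalized separately, so levels set side by side across them are descriptive.

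**Figure D3:**
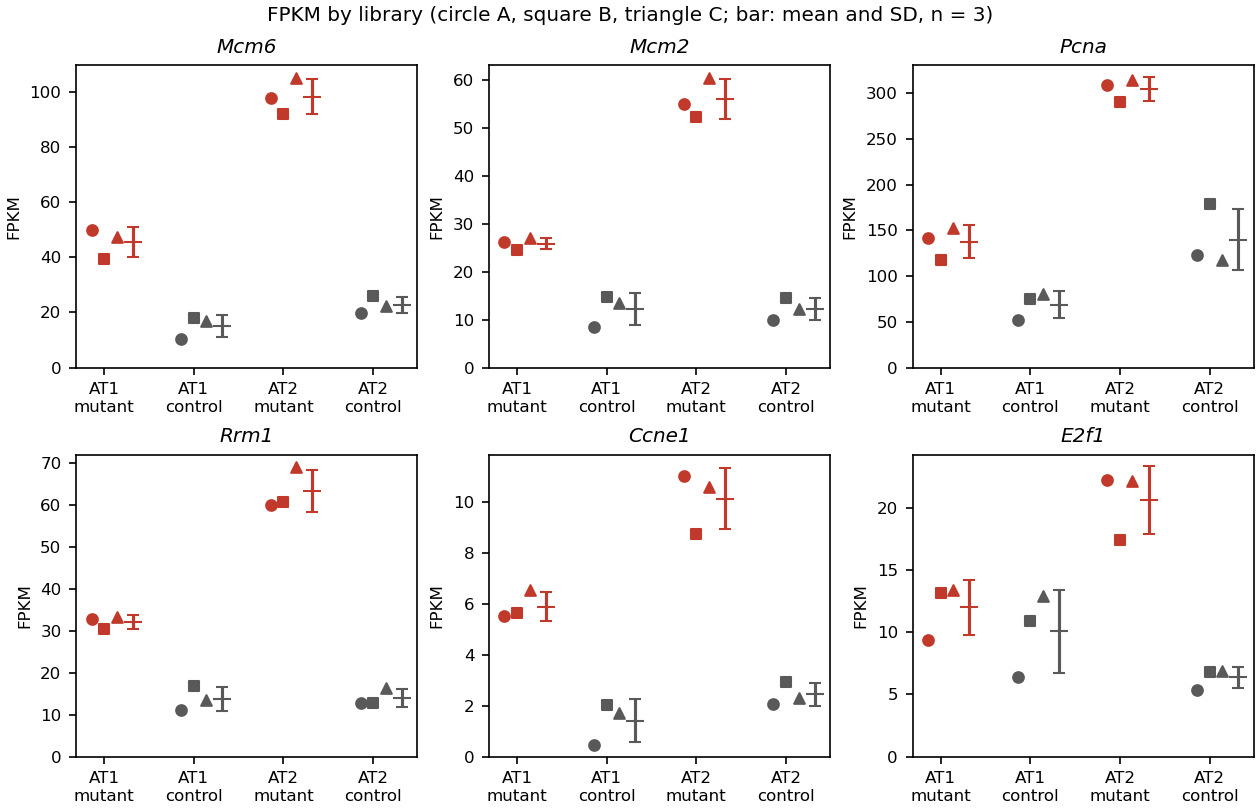
FPKM of 6 genes in each AT1 and AT2 library, mutants in red left of controls in grey; circles, squares and triangles are libraries A, B and C, and bars give the mean and SD of 3 libraries. Mutant and control points are apart in both cell types for Mcm6, Mcm2, Pcna, Rrm1 and Ccne1, and overlap for E2f1 in AT1 cells.

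Whole lung at day 14 gave 1 library per group, so these values have no replicate check and no test. Of the 37 genes, 36 were higher in the mutant lung by some amount. Among the 35 at 1 FPKM or more in either library, 22 were past 1.5-fold on FPKM + 1 and none was past it in the other direction, while 23% of all genes were past 1.5-fold higher. Their median log2 ratio was 0.94, against 0.036 over all genes. Both libraries were also set to equal summed FPKM with mitochondrial and small RNA loci left out. The mitochondrial gene names searched held 0% of the FPKM in both. In that setting 31 of the 35 were higher in the mutant lung, with a median of 0.66 against -0.27 over all genes. Gins2 differed most, with 17.6 FPKM in mutant lung and 2.50 in control lung, a 7.04-fold ratio, and Tk1 followed with 22.8 and 5.79. Chaf1b had 9.45 FPKM in mutant lung and 2.48 in control lung, Cdt1 11.3 and 3.30, and Prim1 9.93 and 3.26. Pcna had 119 FPKM in mutant lung and 74.0 in control lung, and Mcm6 had 29.6 and 11.9.

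Some genes hardly differed between the lungs. Pold1 had 7.85 FPKM in mutant lung and 7.37 in control lung, Dut 8.25 and 7.61, and Pola1 2.25 and 1.89. E2f1 had 6.28 FPKM in mutant lung and 4.84 in control lung. Gins3 was the gene that went the other way, with 1.46 FPKM in mutant lung and 2.55 in control lung. In bulk tissue, fewer cells of a type and less RNA per cell cannot be told apart. All 10 AT1 cell genes and all 10 endothelial genes were past 1.5-fold lower in the mutant lung, with summed FPKM of 966 and 817 in mutant lung and 3423 and 2203 in control lung. So were 9 of 10 AT2 cell genes (1 was higher), 7 of 9 mesenchymal, 2 of 2 erythroid and 3 of 4 mesothelial genes (1 was higher). Leukocyte genes were lower in 5 of 10 and higher in 3, and airway genes lower in 1 of 7 and higher in 1. Of all 13717 genes at 1 FPKM or more in either library, 2959 were past 1.5-fold lower. The part of such shifts in cell makeup was not tested.

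**Figure D4:**
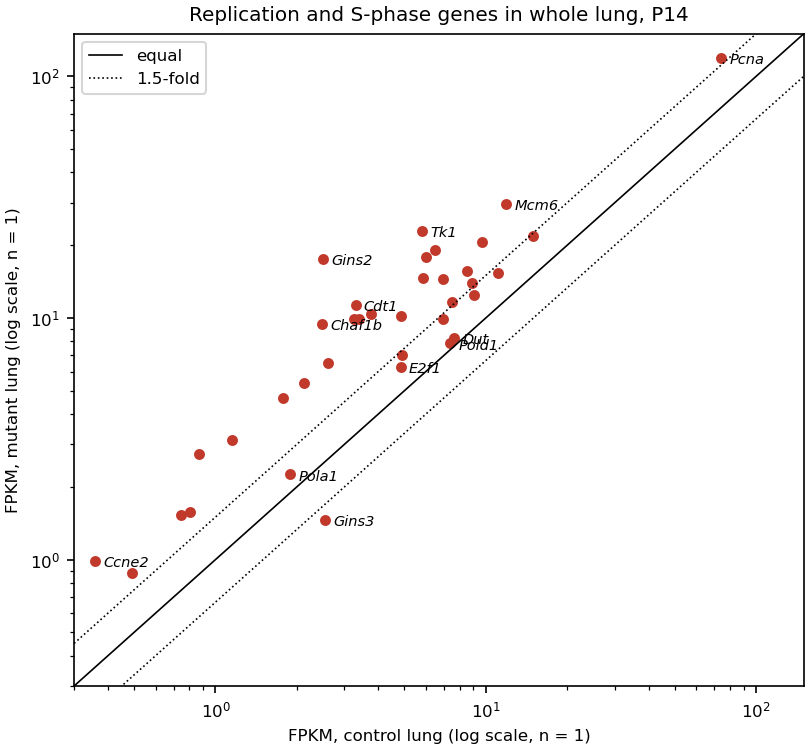
FPKM of the 37 genes in mutant lung (vertical) against control lung (horizontal), both on log axes, 1 library each, with lines of equality and of a 1.5-fold ratio of FPKM. All points but Gins3 lie above the line of equality, and Gins2 lies farthest from it at 7.04-fold.

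Other genes of replication moved less uniformly. Of 40 further replication genes listed, 39 were tested in AT1 cells, where 20 rose and none fell, with a median log2 change of 0.70. In AT2 cells 37 were named, 34 rose and none fell, with a median of 1.19, and Orc3, Orc4 and Orc5 did not pass. Over all genes tested, 11.6% rose in AT1 cells and 32.2% in AT2 cells. The histone chaperone gene Asf1b rose in AT1 cells (10.1 ± 1.34 FPKM in mutants and 2.94 ± 1.69 in controls, SD, n = 3) and in AT2 cells (32.5 ± 3.48 and 7.66 ± 1.25). Clspn, which links the fork to the checkpoint, rose 3.53-fold in AT1 cells and 4.53-fold in AT2 cells, and Chtf18, of an alternative clamp loader, 3.31- and 5.34-fold. In AT1 cells Orc3, Orc4 and Orc5, further subunits of the origin recognition complex that did not pass, averaged 5.27, 8.41 and 9.19 FPKM in mutants and 6.19, 7.53 and 9.04 in controls. In mutant lung, 10 of the 40 were past 1.5-fold higher and 1 was past it lower, a share of higher genes near the 23% of all genes, with a median log2 ratio of 0.40.

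The E2F, pocket protein and CDK2 list was split. In AT1 cells 5 of 15 rose, 2 fell and 8 did not pass, with a median log2 change of 0.49, while 11.6% of all genes rose. Ccna2, the S-phase cyclin A, had 25.5 ± 2.57 FPKM in mutants and 7.60 ± 3.82 in controls (SD, n = 3), and E2f8, an atypical E2F repressor, 5.21 ± 1.23 and 1.61 ± 0.88. Tfdp2, a dimer partner of E2F factors, fell by 1.11 on the log2 scale, to 8.13 ± 0.62 FPKM in mutants, against 19.2 ± 5.71 in controls. Rbl2, the pocket protein p130 of quiescent cells, fell by 0.63 (adjusted p = 0.044). In AT2 cells 9 of 13 rose, E2f2 fell and 3 did not pass, while 32.2% of all genes rose. E2f8 had 15.1 ± 0.95 FPKM in AT2 mutants and 3.30 ± 0.85 in controls, Rbl1 22.1 ± 1.34 and 8.09 ± 1.32, and Tfdp1 50.5 ± 3.08 and 19.7 ± 0.59. E2f3, E2f8, Tfdp1 and Cdc25a rose in both cell types. In mutant lung 4 of the 15 were past 1.5-fold higher and 1 was past it lower, near the share of all genes (23%), and the median log2 ratio was -0.0088.

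Mitosis genes moved with the replication genes and by more. All 20 rose in AT1 cells with a median log2 change of 1.70, all 18 named in AT2 cells rose with a median of 2.16, and all 20 were past 1.5-fold higher in mutant lung. The shares over all genes were 11.6, 32.2 and 23%. Ube2c, a ubiquitin-conjugating enzyme of the anaphase-promoting complex, had 61.1 ± 6.23 FPKM in AT1 mutants and 11.7 ± 7.31 in controls. Cdk1 had 20.4 ± 1.61 FPKM in AT1 mutants and 4.30 ± 2.53 in controls, and Ccnb1 rose 4.78-fold. Top2a had 108 ± 14.2 FPKM in AT2 mutants and 18.7 ± 7.27 in controls, and Plk1 and Cenpf rose 5.57- and 5.45-fold. Summed over the list, mutants A to C held 386, 408 and 384 FPKM in AT1 cells, and controls A to C 36.1, 148 and 137. Control A of the AT1 cells was thus lowest for mitosis genes as well. The promoters of these genes differ from those of the replication genes: E2F letters were in 1 of 17 (5.88%), while the CCAAT box (CCAAT) was in 88.2% and the CHR element (TTTGAA or TTCGAA) in 76.5%. Those 2 motifs were in 59.4 and 18.8% of the replication genes and in 41.1 and 21.7% of all genes.

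**Figure D5:**
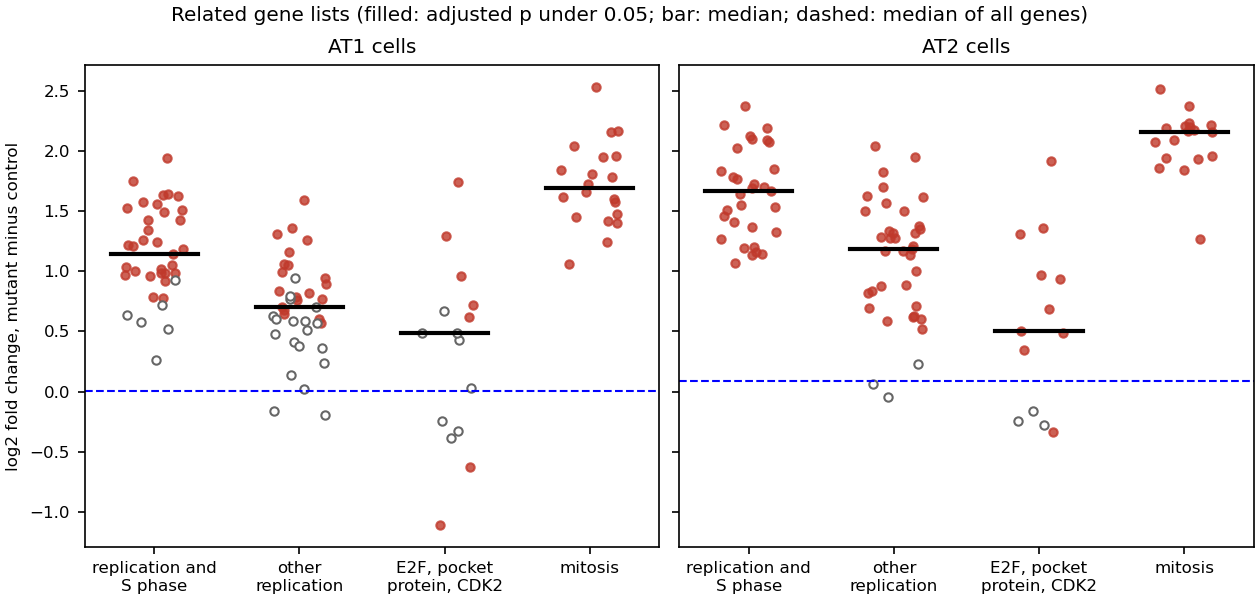
Points are log2 fold changes, mutant minus control, of the genes in each list in AT1 (left) and AT2 (right) cells; filled points passed, black bars are list medians and the dashed line is the median of all genes. Medians run 1.15, 0.70, 0.49 and 1.70 in AT1 cells for replication and S phase, other replication, E2F and mitosis genes.

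Markers of other cell types also moved in the AT1 and AT2 libraries. Over all genes tested, 1462 of 12612 rose and 785 fell in AT1 libraries, and 3415 of 10594 rose and 2382 fell in AT2 libraries. In AT1 libraries, 2 of 5 mesothelial genes rose, with a summed FPKM of 1514 to 2278 in mutants and 265 to 1189 in controls, of which Msln made up 94.4%. Leukocyte genes fell in 2 of 8, with sums of 168 to 305 in mutants and 558 to 954 in controls, of which Lyz1 made up 60.1%. Without Lyz1 the sums overlapped, at 74.2 to 141.6 in mutants and 132.5 to 381.8 in controls. Endothelial genes fell in 2 of 10. AT2 cell genes passed in none of 10 (sums 3461 to 12072 in mutants and 8793 to 19278 in controls). Airway genes fell in 1 of 7, and their sum was highest in AT1 control A, at 4797 against 1430 and 1245 in controls B and C. In AT2 libraries, endothelial genes fell in 10 of 10, with sums of 39.6 to 74.7 in mutants and 112 to 182 in controls. Leukocyte genes fell there in 6 of 7, and Lyz1, a lysozyme gene, made up 96.7% of their FPKM (104 to 312 in mutants and 1866 to 3376 in controls). The other leukocyte genes summed to 10.2 to 27.3 FPKM in mutants and 39.6 to 105 in controls. Mesenchymal genes fell in 4 of 5 and rose in 1, and Krt5, an airway basal cell gene, was listed at 0 in every AT2 library. The part of these markers in the replication results was not tested.

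The counting rules limit some of these values. Exons of 13 of the 37 genes overlap exons of another gene in the GENCODE annotation of GRCm38 (mm10). They are Orc1, Orc6, Mcm7, Cdc45, Gins2, Rfc4, Rfc5, Pole, Fen1, Lig1, Tk1, Chaf1a and Ccne2, with the partner on the other strand in each case and, for Mcm7, microRNA loci on its own strand too. The library kit does not mark strand, so reads from the overlap cannot be told apart. Pcna and Tyms have named pseudogenes, whose reads the processing may split.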

How the data were processed

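Groups were taken from the sample labels. Per the labels' protocols, poly(A)-selected RNA was sequenced as paired-end reads with a kit that does not mark strand. The submitters' processing notes name mm10 and Cufflinks 2.2.1, TopHat2 2.0.14 and Bowtie2 2.2.3, and add Cuffdiff for AT1 and lung libraries and Cuffnorm for AT2 libraries. The values deposited by the authors are FPKM. In the authors' deposited table, the log2 fold changes beside the AT1 FPKM were within 0.1 of the difference in mean log2(FPKM + 1) at 14.0% of 12612 loci, against 100% of 11610 in the AT2 block, and none was used. Its p-values (the authors' deposited table again) lay within 0.001 of a paired test by letter on log2(FPKM + 1) at 12599 of 12611 AT1 loci and all 11610 AT2 loci, so these p-values and the FPKM stand on the same rows. The gene annotation is not given in the sources used here. FPKM summed to between 458291 and 614523 per AT1 library and between 536862 and 983398 per AT2 library, with 625431 in mutant and 715760 in control lung. Dates stood in place of 26 gene names in the AT1 and lung table and of 23 in the AT2 table, and 32 AT2 loci had no values. Loci without a name took 7.78 to 8.39% of the FPKM in mutant AT2 libraries and 4.45 to 6.04% in controls, and were left out.

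Log2(FPKM + 1) was fitted with limma 3.58.1 in R 4.3.3, with a mean-dependent prior variance. A gene was tested where 3 libraries reached 1 FPKM. Changes on this scale understate those of low genes. AT1 and AT2 libraries were fitted separately, and an interaction fit over all 12 used the 18935 genes named once in both tables, with the same filter. Every adjusted p is limma's with Benjamini-Hochberg adjustment over all genes tested. Steps were tested on simulated data. Libraries of the same letter correlated at 0.237, 0.357 and 0.477 in AT1 cells (deviations from group means). In AT2 cells the correlations were 0.12, -0.133 and 0.115. No label says that letters pair the libraries, so every main fit leaves them unpaired, although the authors' own p-values pair letters in both cell types. Fits with letters as a block are given beside the main fits. The genes and all lists were chosen with earlier results of these data known. Values per library are given for the most abundant and the most changed gene of each role, for each gene that did not pass, and for others chosen after their values were seen. From other lists the 3 largest changes are named, with others where a group is described. Tables and plots were made with pandas 2.3.3, matplotlib 3.10.9 and NumPy 2.4.6 under Python 3.11.15.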

Additional observations from a re-analysis of the deposited data

Results flagged for a closer look

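The change differed between cell types, by the interaction test, for 5 genes. The AT2 change minus the AT1 change on the log2 scale was 1.29 for E2f1, 1.07 for Mcm2, 0.92 for Rrm1, 0.83 for Mcm4 and 0.77 for Lig1, larger in AT2 cells in each case. None of the 5 passed without AT2 control A or without AT2 mutant C, and Mcm4 did not pass with letters as a block (adjusted p = 0.0506).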

How the results depend on the processing

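Every replication gene tested kept its direction in both cell types under all alternatives, apart from E2f1 in AT1 cells (-0.0037 without AT1 control A; -0.0037 to 0.45 over the libraries left out). In AT1 cells the 31 genes that rose became 25 with no filter (5.72% of all genes rose) and 26 with equal summed FPKM (5.43%). They became 7 to 31 when 1 library was left out (2.24 to 9.17%), and 34 passed with the letters as a replicate block (15.1%). All genes that rose in AT1 cells (1462) became 686 with equal summed FPKM and 278 to 1146 without 1 library; those that fell (785) became 1359 with the replicate block and 195 to 844 without 1 library. In AT2 cells 31 passed with the replicate block too (31.5% of all genes rose); 3415 genes rose and 2382 fell, against 6018 and 806 with equal summed FPKM, 5123 and 1291 with mitochondrial and small RNA loci left out of the sum (chosen after seeing the data), and 1469 lower in the day 8 libraries alone. For the interaction, 415 genes were larger in AT2 and 442 in AT1, against 3008 and 230 with equal summed FPKM, 673 and 672 with the replicate block, and 2764 larger in AT2 with those loci left out; without 1 library they were 181 to 584 and 223 to 489. The 5 replication genes that passed became 3 with a pseudocount of 0.1, 2 with no filter, 18 with equal summed FPKM, 17 with those loci left out, 3 with median-ratio rescaling, 8 with the replicate block, and 0 to 14 without 1 library. In the same order, 3.68, 2.28, 29, 26.7, 3.24 and 6.51% of all genes were larger in AT2 cells, and 1.76 to 5.7% without 1 library. The block call added Orc6, Gins3, Pola1 and Pold1 and dropped Mcm4. Equal summed FPKM moved the all-gene median to -0.12 in AT1 cells, 0.64 in AT2 cells, 0.53 for the interaction and 0.21 in lung; leaving those loci out moved it to 0.38, 0.42 and -0.27 in the last 3. Interaction values that changed sign were all small: Rfc3 at -0.036 (without AT1 control B), -0.012 (AT1 control C) and -0.046 (AT2 control C), Rfc4 at -0.027 and Prim1 at -0.0075 (AT1 control C), Chaf1b at 0.26 and 0.15 (both equal-sum rescalings), and Ccne1 at -0.18 (pseudocount 0.1), -0.087 (without AT1 control B) and -0.011 (AT1 control C). Over the libraries left out they ran to 0.31 for Rfc3, 0.42 for Rfc4, 0.61 for Prim1 and 0.44 for Ccne1. In lung 3157 genes were past 1.5-fold higher and 2959 lower, against 1637 and 1557 at 2-fold and 1978 and 4553 with those loci left out; replication genes past it and lower were 0, and 1 with a pseudocount of 0.1 or those loci left out. The cause of these shifts was not tested. Depth in reads is unknown, so no counting error was given.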
